A study of Homo sapiens with 2 samples.

Results

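The enzymes that hydroxylate and cross-link collagen were followed in MDA-MB-231, a breast cancer cell line of the triple-negative type, after exposure to D16, a compound that the labels describe as a chalcone. The 10 genes were chosen by symbol from a gene table of 60612 rows: the 5 lysyl oxidases LOX, LOXL1, LOXL2, LOXL3 and LOXL4, the 3 lysyl hydroxylases PLOD1, PLOD2 and PLOD3, and the collagen prolyl 4-hydroxylase subunits P4HA1 and P4HA2. Each symbol had 1 row. The choice was made with the difference between the libraries already known, so the values below describe these genes and test nothing.

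The D16 group was 1 culture given 24 µM D16 for 48 h, and the control group was 1 culture in normal medium with no D16. Both were grown in RPMI-1640 with 10% fetal bovine serum, and each gave 1 library of total RNA, so no difference has a replicate check and no p-value was computed. A lower level in such bulk RNA can mean fewer cells with the message or less RNA per cell, which cannot be told apart here. The labels name no solvent control and give 1 dose and 1 time.

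Collagen is hydroxylated inside the endoplasmic reticulum and cross-linked outside the cell. Prolyl 4-hydroxylases, tetramers of an alpha subunit and protein disulfide isomerase, make the hydroxyproline that holds the triple helix together at body temperature. Lysyl hydroxylases act on lysines, which then carry sugars or become sites of cross-links. Both kinds of hydroxylase need iron, ascorbate, oxygen and 2-oxoglutarate. Lysyl oxidases are secreted copper enzymes that turn lysine and hydroxylysine side chains into aldehydes, from which the covalent cross-links of collagen and elastin form. In breast tumours lysyl oxidases are known for stiffening the matrix, and several members of both classes are known targets of the hypoxia-inducible factors.

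The annotations in the deposited table follow this division. All 5 hydroxylases carried the Gene Ontology terms for iron ion binding, L-ascorbic acid binding and the endoplasmic reticulum. The 3 lysyl oxidases whose terms were read here, LOXL1, LOXL3 and LOXL4, all carried copper ion binding, protein-lysine 6-oxidase activity and extracellular space. Of the hydroxylases, PLOD3 alone shared the extracellular term, and PLOD1 and PLOD2 carried response to hypoxia.

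The genes lie on 8 chromosomes, with LOX and P4HA2 both on chromosome 5 and LOXL4 and P4HA1 both on chromosome 10. As the table gives them, with no genome build named, LOX (ENSG00000113083) spans chr5:122063195-122078259, LOXL1 (ENSG00000129038) chr15:73925989-73952137, LOXL3 (ENSG00000115318) chr2:74532258-74553961 and LOXL4 (ENSG00000138131) chr10:98247690-98268194. LOXL2 is ENSG00000134013. PLOD1 (ENSG00000083444) spans chr1:11934205-11966414, PLOD2 (ENSG00000152952) chr3:146069440-146161184 and PLOD3 (ENSG00000106397) chr7:101205977-101218366. P4HA1 (ENSG00000122884) spans chr10:73007217-73096974 and P4HA2 (ENSG00000072682) chr5:132191838-132295315. Of the 10 genes, 3 had both ends and 8 at least 1 end at the same place in GENCODE release 29, which is on GRCh38, and the largest distance was 9124 bp.

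Promoter sequences are shown for the 3 lysyl oxidases with a RefSeq promoter that stood lower by more than 2-fold, and for P4HA1, the hydroxylase furthest in the other direction. RefSeq promoters on GRCh38.p14 were found for 9 of the 10 genes, 4 lysyl oxidases and 5 hydroxylases. Each run below is the 250 bases before the transcription start nearest to the gene's start in the table, 5′ to 3′ on the gene's own strand. That start was 473 bases away for LOXL1, whose run lies inside the gene span given above, and 108 bases away for P4HA1. Among genes not printed it was 512 bases away for PLOD1, 785 for PLOD3 and 68224 for P4HA2. Capitals mark ACGTG, a form of the core of the hypoxia response element, or its reverse complement CACGT. Other forms of that core were not searched.
LOX, chr5:122078260-122078509, minus strand: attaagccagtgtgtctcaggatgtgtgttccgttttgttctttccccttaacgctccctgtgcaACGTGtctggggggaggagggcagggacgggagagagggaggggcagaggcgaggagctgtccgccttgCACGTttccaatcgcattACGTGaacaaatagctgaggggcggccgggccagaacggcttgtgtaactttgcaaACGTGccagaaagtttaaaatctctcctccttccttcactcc
LOXL1, chr15:73926212-73926461, plus strand: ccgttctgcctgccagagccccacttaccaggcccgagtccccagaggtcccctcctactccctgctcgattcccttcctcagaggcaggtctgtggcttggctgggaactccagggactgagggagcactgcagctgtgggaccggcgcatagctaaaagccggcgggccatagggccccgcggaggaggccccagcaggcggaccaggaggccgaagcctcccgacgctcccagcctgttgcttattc
LOXL4, chr10:98268195-98268444, minus strand: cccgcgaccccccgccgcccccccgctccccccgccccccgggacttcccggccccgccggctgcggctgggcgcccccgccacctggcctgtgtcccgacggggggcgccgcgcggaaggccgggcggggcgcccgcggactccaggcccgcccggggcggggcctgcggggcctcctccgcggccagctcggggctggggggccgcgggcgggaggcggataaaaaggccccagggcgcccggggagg
P4HA1, chr10:73096867-73097116, minus strand: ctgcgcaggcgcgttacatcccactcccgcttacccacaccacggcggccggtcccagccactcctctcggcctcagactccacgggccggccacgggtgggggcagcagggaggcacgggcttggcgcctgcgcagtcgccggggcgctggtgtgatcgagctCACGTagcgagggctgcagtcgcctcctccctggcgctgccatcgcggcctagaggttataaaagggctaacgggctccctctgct
The LOX promoter held 4 matches, which began 185, 116, 98 and 42 bases before the start. LOXL1 and LOXL4 had no match in this window, and P4HA1 had 1 match at 86 bases. PLOD2 held 2 matches, and the other 4 matched promoters, of LOXL3, PLOD1, PLOD3 and P4HA2, held none. Among all 35116 RefSeq promoters of the same length, 18.5% held the motif on either strand. None of the 9 promoters held TGACNNNGC, the core of the antioxidant response element, or its reverse complement GCNNNGTCA. Of all promoters, 10.9% held it on either strand. The LOXL4 promoter was 86.4% G and C, against 55.2% for LOX, 66.8% for LOXL1 and 70.0% for P4HA1, and the median of all promoters was 58.0%. A match is a run of letters and not a measured binding site.

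Levels are in FPKM, fragment counts scaled to transcript length and library size, so they can be set side by side between genes. Differences are log2((FPKM in D16 + 1) / (FPKM in control + 1)), on which 2-fold is a step of 1, and folds beside FPKM values are ratios without the added 1. Every 95% interval is exact and covers counting error only. The deposited counts summed to 73303902 in the D16 library and 72108404 in the control library, and about 4 counts stood for 1 read pair. Mitochondrially encoded genes took 7.59% of the counts in the D16 library and 12.6% in the control library, and the FPKM values summed to 296616 in the D16 library and 336554 in the control library. The part of this shift in the differences below was not tested. The differences of the 10 genes and the medians of the 9 gene lists were recomputed after rescaling. Those of other single genes were not. The 5 genes typical of the line were present in both libraries, vimentin (VIM) at 259 FPKM in D16 and 502 FPKM in control among them. Of the 5, 4 lay below 0 and 2 were at least 2-fold lower. Among the 11830 genes averaging at least 1 FPKM, 5104 lay below 0 and 3.97% were at least 2-fold lower. Of the 3 receptors listed as low in the line, ESR1 stood at 0.00935 FPKM in D16 and 0.0192 FPKM in control, and PGR was listed at 0 in both. ERBB2 did have reads, at 5.72 FPKM in D16 and 5.38 FPKM in control.

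Most lysyl oxidases were lower in the D16 library, while the hydroxylases were near level or higher. Of the 5 lysyl oxidases, 4 were at least 2-fold lower in the D16 library, and LOXL3 was near the limit of detection in both. Of the 5 hydroxylases, none was 2-fold apart on the log2 scale with 1 FPKM added, and P4HA1 came closest, 2.01-fold higher by the ratio with nothing added. A gene was called measured when its 2 levels averaged at least 1 FPKM, which 11830 genes did. In this set 470 genes were at least 2-fold lower, which is 3.97%, and 430 at least 2-fold higher, which is 3.63%. At a lower step of 1.5-fold the counts were 4 lysyl oxidases lower, beside 11.0% of measured genes, and 1 hydroxylase higher, beside 13.2%. The 10 genes were picked for this contrast, so nothing is read from the counts against that background.

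**Figure D1:**
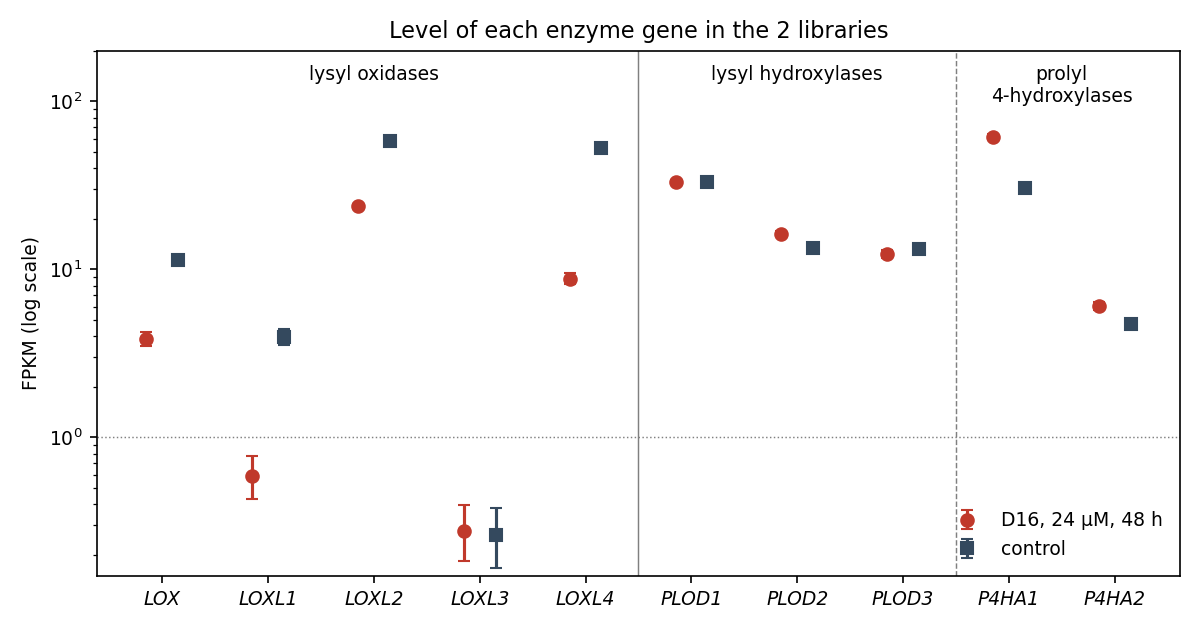
FPKM (log axis) of each of the 10 genes in the D16 library (circles, left of each pair) and the control library (squares), with exact 95% intervals for counting error; the dotted line is 1 FPKM. LOX, LOXL1, LOXL2 and LOXL4 sit lower in D16, the 3 lysyl hydroxylases are nearly level, and P4HA1 stands at 61.6 FPKM in D16 against 30.6 FPKM in control.

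LOX, the founding lysyl oxidase, is secreted as a proenzyme that the protease BMP1 cuts. It stood at 3.85 FPKM in the D16 library (95% interval 3.51 to 4.21, 470 read pairs), against 11.4 FPKM in the control library (10.8 to 12.1, 1340 read pairs). The D16 value was 2.97-fold lower (95% interval 2.67 to 3.31), a log2 difference of -1.36. The intervals of the libraries are far apart, and 213 of the 11830 genes lay lower on the log2 scale.

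LOXL1, the member most closely tied to elastic fibres and like LOX a proenzyme, stood at 0.585 FPKM in D16 from 47 read pairs, against 3.96 FPKM in control from 305 read pairs. This is the largest ratio of the class, 6.78-fold lower, with the wide interval of 4.98 to 9.43 that few reads give. The interval of LOXL4, 5.54 to 6.51, lies inside it, so LOXL1 and LOXL4 cannot be ranked by ratio. On the log2 scale with 1 FPKM added the LOXL1 difference was -1.65. LOXL1 counted as measured only through the control library.

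LOXL2 and LOXL4 carry scavenger receptor cysteine-rich domains ahead of the catalytic domain, and they were the bulk of the class in both libraries. LOXL2, which is known to act on collagen IV, stood at 23.8 FPKM in D16 (22.9 to 24.6), against 58.0 FPKM in control (56.7 to 59.4). It was 2.44-fold lower (95% interval 2.34 to 2.55), a log2 difference of -1.25 and the smallest of the 4. LOXL4 stood at 8.80 FPKM in D16 (8.16 to 9.49), against 52.9 FPKM in control (51.2 to 54.5). It was 6.004-fold lower (95% interval 5.54 to 6.51), and its log2 difference of -2.46 was lower than that of all but 20 of the 11830 genes. The intervals of LOXL2 and LOXL4 do not overlap in either library, but in control the genes were near each other, with LOXL4 at 0.911 of LOXL2, while in D16 LOXL4 was at 0.370 of it.

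LOXL3, which has the same domain order as LOXL2 and LOXL4, was hardly detected, with 0.277 FPKM in D16 (28 read pairs) and 0.260 FPKM in control (25 read pairs). The interval of its ratio ran from 0.600 to 1.91, so a level up to 1.67-fold lower or 1.91-fold higher in D16 could not be told from no difference at this depth. It did not count as measured and is left out of medians over measured genes.

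The lysyl hydroxylases lay near level. PLOD1, which hydroxylates lysines of the triple helix, stood at 33.1 FPKM in D16 and 33.0 FPKM in control, a ratio of 1.001 (95% interval 0.956 to 1.05). PLOD2, which hydroxylates the telopeptide lysines that steer cross-links to the hydroxylysine type, stood at 16.3 FPKM in D16 and 13.4 FPKM in control, 1.22-fold higher (95% interval 1.15 to 1.29). PLOD3, which also adds sugars to hydroxylysine, stood at 12.3 FPKM in D16 and 13.3 FPKM in control, a ratio of 0.929 (95% interval 0.866 to 0.997). The interval of PLOD1 includes 1 and that of PLOD3 nearly reaches it, and the direction of PLOD1 and PLOD3 depended on scaling: after rescaling to equal FPKM sums PLOD1 lay at 0.18 and PLOD3 at 0.071 on the log2 scale, and after centring on the median gene at -0.15 and -0.25.

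The prolyl 4-hydroxylase alpha subunits were both higher, by different amounts. P4HA1, the main catalytic subunit of most cells, stood at 61.6 FPKM in D16 (59.8 to 63.5), against 30.6 FPKM in control (29.3 to 32.0). It was 2.01-fold higher (95% interval 1.91 to 2.12), and on the log2 scale its difference of 0.99 fell just short of the step of 1. It passed that step at 1.01 with 0.1 FPKM added and at 1.16 after rescaling to equal sums, and 446 of the 11830 genes lay higher. P4HA2, the alternative catalytic subunit, stood at 6.04 FPKM in D16 and 4.69 FPKM in control. It was 1.29-fold higher (95% interval 1.17 to 1.41) with a log2 difference of 0.31, and 3606 of the 11830 genes lay higher. Its difference was 0.16 after centring on the median gene and 0.46 after rescaling to equal sums. P4HA1 was 10.2 times the level of P4HA2 in D16 and 6.53 times in control. P4HB, the shared beta subunit, stood at 115 FPKM in D16 and 113 FPKM in control, so its level per summed alpha subunit was 1.71 in D16 and 3.18 in control.

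**Figure D2:**
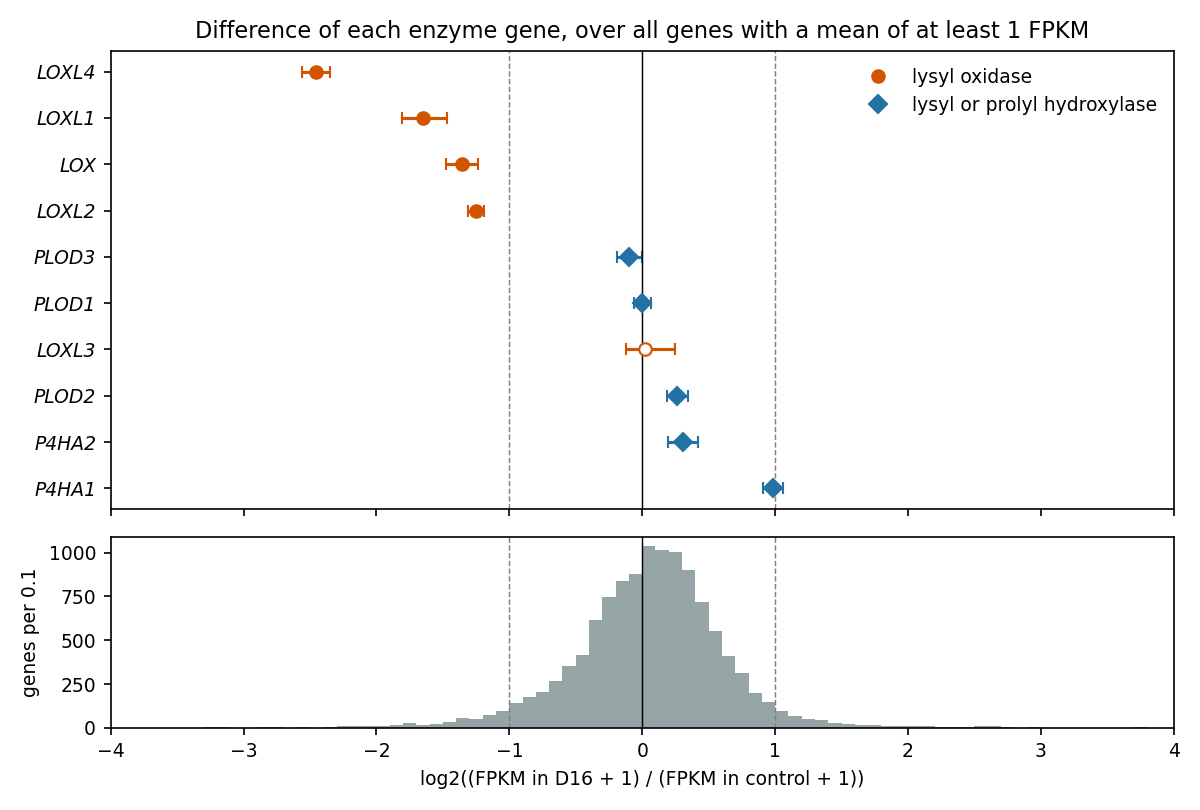
Top, log2 difference of each of the 10 genes (D16 over control, 1 FPKM added) with 95% counting intervals, circles for lysyl oxidases and diamonds for hydroxylases, the open circle being LOXL3, which was not measured. Bottom, the same difference over all 11830 measured genes, with dashed lines at 2-fold; 4 lysyl oxidases lie left of the lower line, and no gene of either class lies right of the upper line.

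Set against each other, the classes overlapped at LOXL3 only. The lysyl oxidases ran from -2.46 to 0.020 on the log2 scale and the hydroxylases from -0.098 to 0.99. The median was -1.36 over all 5 lysyl oxidases and -1.50 over the 4 measured ones. Over the 5 hydroxylases, all of which were measured, it was 0.26, and all measured genes had a median of 0.079, with 6726 of 11830 above 0 and 5104 below. The direction of each class median was the same under each of the 6 scalings and pseudocounts tried, with the hydroxylase median between 0.12 and 0.44. The 4 lower lysyl oxidases stayed negative under all of them, but with 5 FPKM added LOX lay at -0.89 and LOXL1 at -0.68, inside 2-fold. Another added value cannot change a sign. The rescalings moved the median of all measured genes only between -0.068 and 0.23, so the lysyl oxidase median could hardly change direction.

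The balance of the classes differed between the libraries. The 5 lysyl oxidases summed to 37.3 FPKM in D16 and 127 FPKM in control, 3.39-fold lower. The 5 hydroxylases summed to 129 FPKM in D16 and 95.1 FPKM in control, 1.36-fold higher. Lysyl oxidase messages were thus 0.288 of the hydroxylase sum in D16 and 1.33 of it in control. P4HA1 alone was 47.6% of the hydroxylase sum in D16 and 32.2% in control. Most of the difference in that sum came from this 1 gene, at 61.6 FPKM in D16 and 30.6 FPKM in control. The 3 lysyl hydroxylases together were close to level, at 61.7 FPKM in D16 and 59.7 FPKM in control. P4HA2 added 6.04 FPKM in D16 and 4.69 FPKM in control. LOXL2 and LOXL4 together made up 87.4% of the lysyl oxidase sum in D16 and 87.6% in control, with LOXL4 at 23.6% in D16 and 41.8% in control and LOXL2 at 63.8% in D16 and 45.9% in control.

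**Figure D3:**
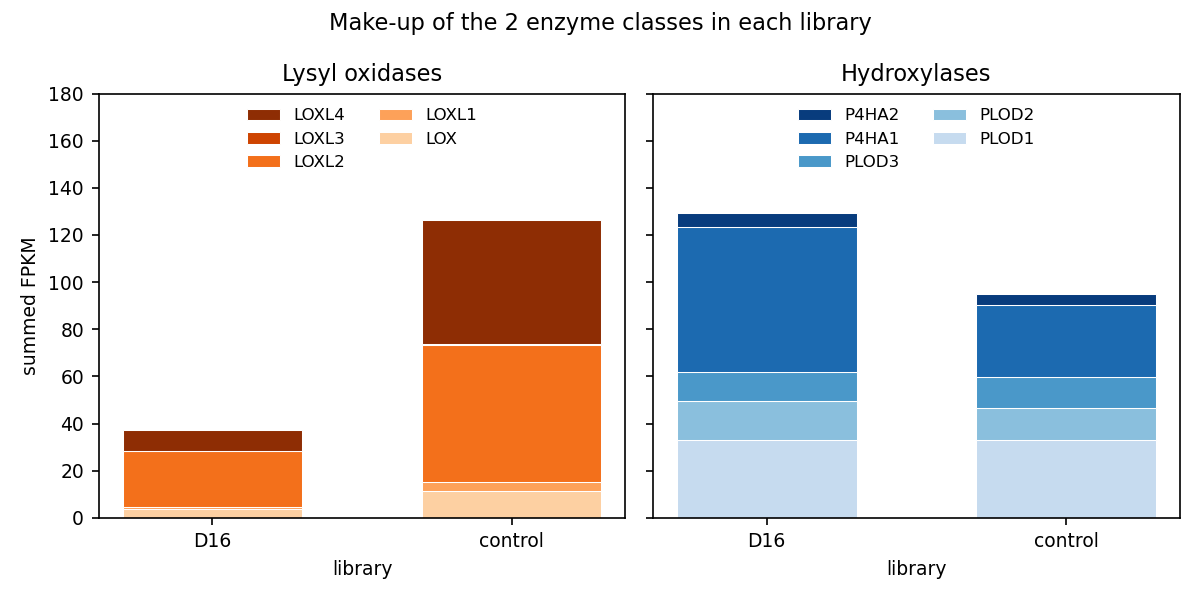
Summed FPKM of the 5 lysyl oxidases (left panel) and the 5 hydroxylases (right panel) in the D16 and control libraries, each bar stacked by gene from 0. The lysyl oxidase bar is 37.3 FPKM in D16 and 127 FPKM in control, and the hydroxylase bar is 129 FPKM in D16 and 95.1 FPKM in control.

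The order of the genes also differed. In D16 it ran P4HA1, PLOD1, LOXL2, PLOD2, PLOD3, LOXL4, P4HA2, LOX, LOXL1 and LOXL3, and no neighbours had overlapping intervals. In control it ran LOXL2, LOXL4, PLOD1, P4HA1, PLOD2, PLOD3, LOX, P4HA2, LOXL1 and LOXL3. There the intervals overlapped for PLOD1 and P4HA1, for PLOD2 and PLOD3, and for P4HA2 and LOXL1. LOXL4 thus stood second of 10 in control and sixth in D16.

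Several members share their locus with another gene, and the sources used here do not say whether counting used strand, although the libraries were strand-marked, so reads of antisense pairs cannot be told apart. LOXL1-AS1, an antisense RNA of that locus, stood at 0.448 FPKM in D16 and 2.31 FPKM in control, lower like LOXL1 itself. In GENCODE release 29 it covers 9.21% of the exonic bases of LOXL1. LOX overlaps SRFBP1 on the opposite strand, which went the other way, with 7.97 FPKM in D16 and 4.07 FPKM in control, and covers 2.49% of the exonic bases of LOX. LOXL3 is the most exposed, since HTRA2 covers 14.3% of its exonic bases at 16.5 FPKM in D16 and 10.8 FPKM in control. LOXL2 was the 1 member with a same-strand neighbour that had reads, ENTPD4, with 7.40 FPKM in D16 and 9.68 FPKM in control. Summing the counts of both gave a log2 ratio of -1.10 with nothing added, against -1.29 for LOXL2 alone. For P4HA1 no overlapping gene had any count, and P4HA2-AS1 was listed at 0 in both libraries. Whether reads were shared within these pairs was not tested.

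The authors' deposited table of terms holds LOX under wound healing at -1.57 and LOXL2 under cell adhesion at -1.29. Both are log2 ratios of FPKM with nothing added, and the ratios recomputed here from the gene table give the same numbers.

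The other genes of collagen maturation were taken from 5 lists of 53 genes in all, of which 32 were measured. Of these 32, P3H4, CREB3L2, TGM2 and FN1 passed the 2-fold step downwards, which 3.97% of all measured genes did. None passed it upwards, against 3.63% of all measured genes. The median was 0.029, beside 0.079 over all measured genes. The sign of this median was not stable, at -0.12 after centring and 0.21 after rescaling to equal sums.

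Among the partners of the hydroxylases, 9 of 12 were measured. Of these 4 lay above 0 and 5 below, beside 6726 above and 5104 below among all 11830 measured genes. P3H4, a scaffold that in mice joins lysyl hydroxylase 1 to a prolyl 3-hydroxylase, stood at 0.689 FPKM in D16 and 2.65 FPKM in control, 3.85-fold lower (95% interval 2.85 to 5.26). COLGALT2, which adds galactose to hydroxylysine, stood at 0.780 FPKM in D16 and 2.17 FPKM in control. Like LOXL1, both P3H4 and COLGALT2 counted as measured only through the control library. CRTAP, the partner of prolyl 3-hydroxylase 1, stood at 27.4 FPKM in D16 and 40.9 FPKM in control, and the prolyl 3-hydroxylase P3H2 at 21.6 FPKM in D16 and 14.3 FPKM in control. The collagen chaperone SERPINH1 was close to level, at 31.3 FPKM in D16 and 32.5 FPKM in control.

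Of the procollagen export genes, all 14 measured, 10 lay above 0, beside 6726 of all 11830 measured genes. Their median was 0.25, between 0.11 and 0.41 over the alternatives. CREB3L2 was the exception in size, at 1.71 FPKM in D16 and 12.2 FPKM in control, 7.10-fold lower (95% interval 6.32 to 7.99). It encodes a membrane-bound transcription factor that in mouse cartilage drives SEC23A, a coat protein of the vesicles that carry procollagen. SEC23A itself stood at 9.54 FPKM in D16 and 14.1 FPKM in control. SAR1B, a GTPase of the same coat, stood at 4.76 FPKM in D16 and 2.75 FPKM in control, and KLHL12, a ubiquitin ligase adaptor that enlarges these vesicles, at 14.1 FPKM in D16 and 10.03 FPKM in control.

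Of the 9 processing genes only 2 were measured. BMP1, the protease that trims procollagen and activates LOX, stood at 2.73 FPKM in D16 and 4.36 FPKM in control, 1.60-fold lower (95% interval 1.41 to 1.81). FURIN, a convertase of secreted proenzymes, stood at 18.3 FPKM in D16 and 13.2 FPKM in control.

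Both measured cross-linking enzymes outside the lysyl oxidase family were lower, out of 9 listed, beside 5104 of all 11830 measured genes. TGM2, the tissue transglutaminase, stood at 21.3 FPKM in D16 and 70.9 FPKM in control, 3.33-fold lower (95% interval 3.21 to 3.46). PXDN, peroxidasin, which links collagen IV through sulfilimine bonds, stood at 17.1 FPKM in D16 and 26.9 FPKM in control, 1.58-fold lower (95% interval 1.52 to 1.64).

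Genes that supply copper to lysyl oxidases or hold them in the matrix were split, with 5 of 9 measured. The copper importer SLC31A1 stood at 22.0 FPKM in D16 and 13.5 FPKM in control. ATP7A, which loads copper into secreted enzymes, stood at 1.65 FPKM in D16 and 1.42 FPKM in control, and its ratio interval of 0.998 to 1.34 includes 1. Fibronectin (FN1), on which LOX is activated, stood at 11.2 FPKM in D16 and 29.9 FPKM in control. Thrombospondin 1 (THBS1) stood at 49.02 FPKM in D16 and 72.6 FPKM in control.

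**Figure D4:**
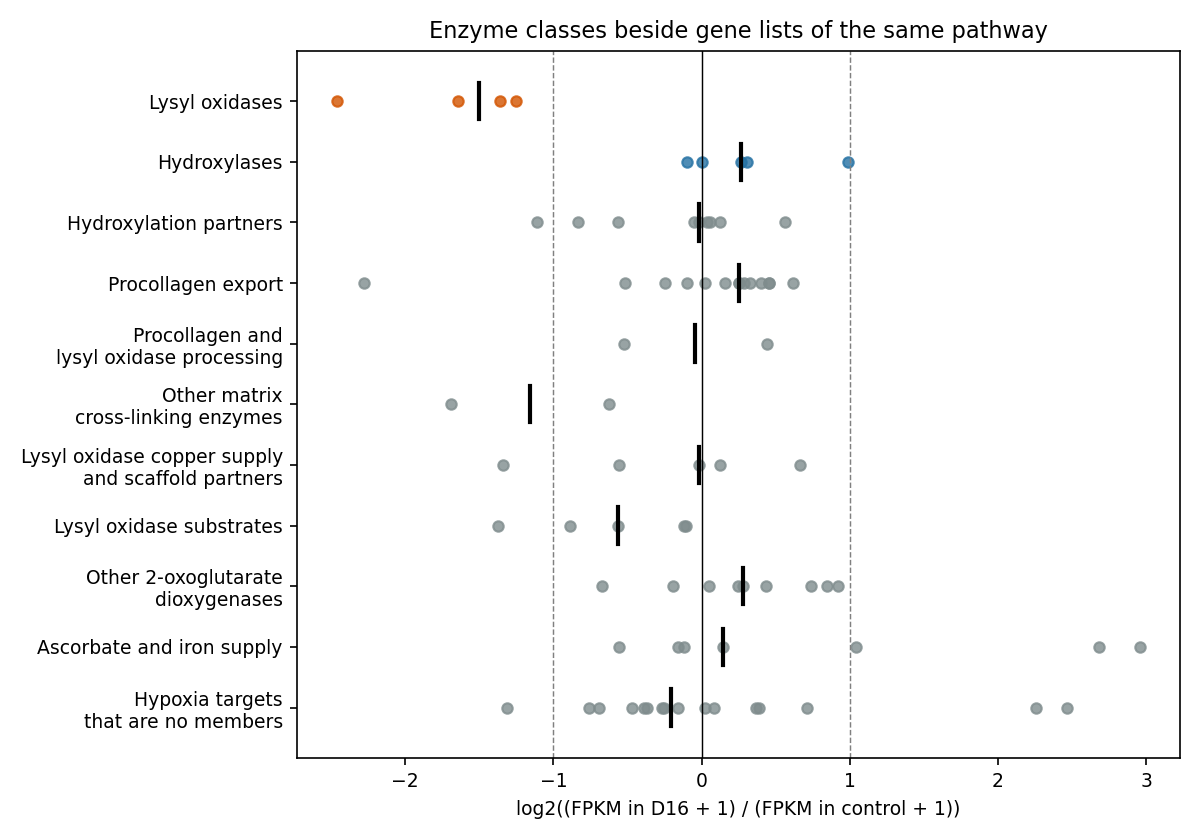
Log2 difference (D16 over control, 1 FPKM added) of each measured gene of the 2 enzyme classes and of 9 gene lists, with the median of each as a black bar and dashed lines at 2-fold. The lysyl oxidases lie at -2.46 to -1.25, all measured substrates and other cross-linking enzymes lie below 0, and the other lists have genes on both sides of 0.

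Of 12 listed substrates 5 were measured, and 1 of them, COL5A1, was at least 2-fold lower, beside 3.97% of all measured genes. All 5 lay below 0, beside 5104 of all 11830 measured genes, with a median of -0.57. That median moved widely with the filter, to -0.10 with none and -1.13 over genes averaging 5 FPKM or more. The ratio intervals of COL1A1 and COL1A2 included 1: COL1A1 stood at 2.46 FPKM in D16 and 2.72 FPKM in control, and COL1A2 at 1.10 FPKM in D16 and 1.29 FPKM in control. COL5A1 stood at 3.27 FPKM in D16 and 10.06 FPKM in control, 3.08-fold lower (95% interval 2.84 to 3.33). The basement membrane chains COL4A1 and COL4A2 stood at 2.13 and 3.98 FPKM in D16, against 3.64 and 8.22 FPKM in control. Over all collagen chains, 14 of 44 were measured. All 14 lay below 0, beside 5104 of all 11830 measured genes, with a median of -0.92. The numbers of substrates and of chains below 0 were not recomputed after rescaling, nor was the median of all chains. The most abundant, COL13A1, stood at 8.91 FPKM in D16 and 24.9 FPKM in control. COL6A1 stood at 10.2 FPKM in D16 and 19.5 FPKM in control, COL8A1 at 5.13 FPKM in D16 and 11.02 FPKM in control, and COL12A1 at 5.21 FPKM in D16 and 9.82 FPKM in control.

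Hypoxia targets that are not members showed no common direction. Of 17 listed, 16 were measured, 7 above 0 and 9 below, beside 6726 above and 5104 below among all 11830 measured genes. At least 2-fold higher were 2 and at least 2-fold lower 1, beside 3.63% and 3.97% of all measured genes. The median was -0.20, beside 0.079 over all measured genes. ADM, the peptide adrenomedullin, stood at 60.2 FPKM in D16 and 11.8 FPKM in control, and ANGPTL4 at 11.7 FPKM in D16 and 1.302 FPKM in control. VEGFA stood at 13.6 FPKM in D16 and 23.6 FPKM in control, and DDIT4, an inhibitor of mTOR signalling, at 49.2 FPKM in D16 and 124 FPKM in control.

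Markers of other cell types were read beside these genes. Of 10 fibroblast markers only COL1A1 and COL1A2 were measured, and the 10 summed to 5.99 FPKM in D16 and 7.30 FPKM in control. PDGFRB stood at 0.301 FPKM in D16 and 1.02 FPKM in control, 3.38-fold lower (95% interval 2.41 to 4.73). FAP stood at 0.0965 FPKM in D16 and 0.0426 FPKM in control, a ratio of 2.26 with an interval of 0.824 to 6.22. The ratio intervals of the other 8 fibroblast markers included 1. The 3 endothelial markers summed to 0.0896 FPKM in D16 and 0.471 FPKM in control, most of it PECAM1. The 4 blood cell markers summed to 0.252 FPKM in D16 and 0.683 FPKM in control, with CD3E and HBB listed at 0 in both. Their part in the differences above was not tested.

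**Figure D5:**
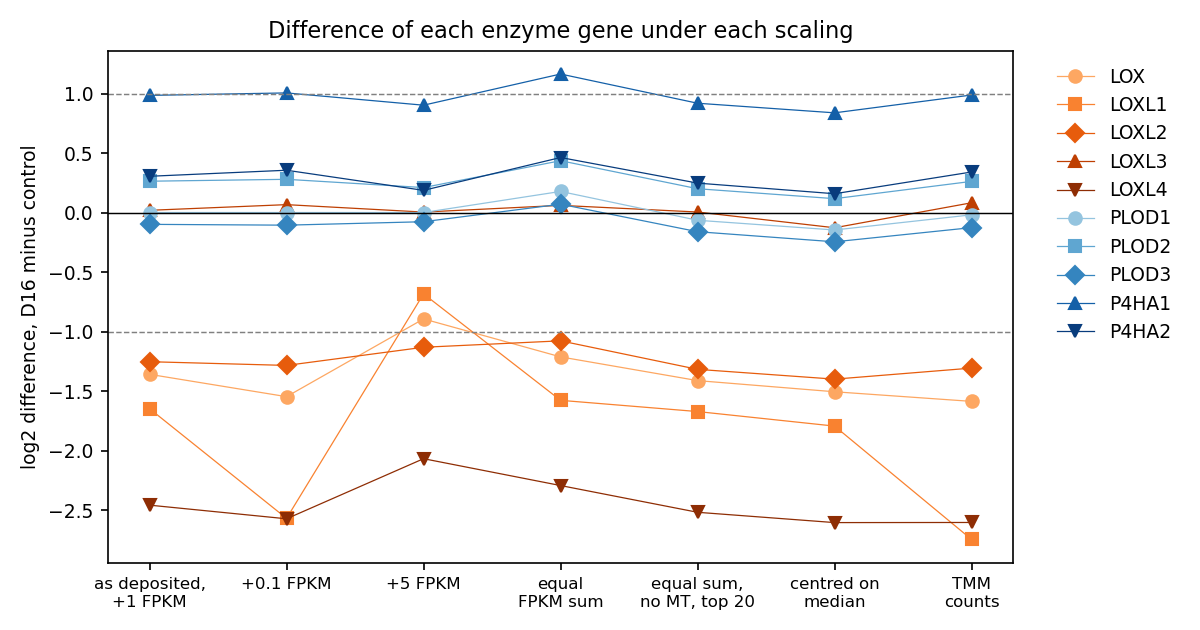
Log2 difference (D16 minus control) of each of the 10 genes as reported, with 0.1 or 5 FPKM added, and under 4 other scalings, with dashed lines at 2-fold. The TMM values have a prior count of 4 in place of the added FPKM. LOXL4 stays lowest or nearly so throughout, LOXL1 moves most with the added value because it is low, and PLOD1, PLOD3 and LOXL3 cross 0.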

How the data were processed

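MDA-MB-231 RNA was sequenced from 1 D16 and 1 control culture. The authors' deposited FPKM and counts, named so per the file headers, were used as they stand, with FPKM of 0.0001 read as 0. Per the submitters' processing notes the tools included StringTie 1.3.4d, HISAT2 2.0.4 and cutadapt 1.9; the sources used here name neither genome build nor counting step. Among rare messages, values of 4 were far more frequent than their neighbours (528, 1440 and 279 D16 genes had 3, 4 and 5 counts, and 473, 1308 and 254 control genes), so 4 counts were taken as 1 read pair. Intervals (95%, Clopper-Pearson for ratios, exact Poisson for levels) rest on this reading. The authors' deposited log2 fold changes were copied for 2 genes, and 8 further per-sample columns stayed unused.

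The 10 genes, the 9 lists and the tests were chosen with earlier results of these data known. All 10 genes were named, with up to 4 measured genes of largest difference per list, overlapping genes, cell markers and abundant collagen chains; P4HB, SERPINH1 and COL1A1 were added after their values were seen. Genes averaging 1 FPKM or more counted as measured. Alternatives were other pseudocounts, filters and scalings, among them TMM (edgeR 4.0.16, prior count 4). Steps were tested on simulated data. Python 3.11.15, scipy 1.17.1 and R 4.3.3 were used. Gene Ontology terms of LOX and LOXL2 are not reported here.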

Additional observations from a re-analysis of the deposited data

How the results depend on the processing

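Depth limits LOXL3 and LOXL1, with 28 and 47 read pairs in D16, and with 1 library per group no spread between cultures is known. No paired analysis was possible because each group has 1 library. The lysyl oxidase median of -1.50 was -2.06 with 0.1 FPKM added, -1.01 with 5 FPKM added and -2.09 with TMM-scaled counts, and the number at least 2-fold lower was 2 with 5 FPKM added, against 4. A larger added value shrinks the difference of low genes by construction. The TMM setting also put a prior count of 4 in place of the added 1 FPKM. Its factors were close, at 1.02 for D16 and 0.982 for control. With nothing added to the deposited FPKM, the log2 ratios were -1.57 for LOX, -2.76 for LOXL1, -1.29 for LOXL2 and -2.59 for LOXL4. With TMM they were -1.59, -2.75, -1.31 and -2.60. The hydroxylase median of 0.26 was 0.19 with 5 FPKM added, 0.44 after rescaling to equal FPKM sums and 0.12 after centring on the median of genes averaging 5 FPKM or more. Of the hydroxylases 1, P4HA1, was at least 2-fold higher with 0.1 FPKM added and after rescaling to equal sums, and 1 passed at 1.5-fold. PLOD3 changed direction, from -0.098 as reported to 0.071 after rescaling to equal sums. That step divides every D16 level by 0.881, the ratio of the FPKM sums, so it moves all genes upwards by construction.

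The median of the other collagen maturation genes was -0.089 with no filter, -0.12 when centred and 0.21 with equal sums, and at 1.5-fold 6 of the 32 were lower and 2 higher, beside 11.0% and 13.2% of all measured genes. Over all genes, 470 lower and 430 higher became 847 lower and 717 higher with 0.1 FPKM added, 139 lower and 150 higher with 5 FPKM added, 914 lower and 719 higher with TMM-scaled counts, 234 lower and 280 higher at a mean of at least 5 FPKM, and 1296 lower and 1563 higher at 1.5-fold. The TMM-scaled counts again had the prior count of 4 in place of the added 1 FPKM. Rescaling to equal sums gave 350 lower and 697 higher, so that 66.6% were higher against 47.8% as reported. Centring gave 675 lower and 303 higher, 31.0% higher. The median of all measured genes was 0.079 as reported, -0.068 when centred and 0.23 with equal sums. The lowest and highest values over the alternatives were -2.60 and -2.07 for LOXL4, -1.40 and -1.08 for LOXL2, and 0.84 and 1.16 for P4HA1.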

Other observations

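Other enzymes that use iron and 2-oxoglutarate to hydroxylate proteins, the chemistry of the collagen hydroxylases, were measured in 9 of 10 cases. Of these 7 lay above 0 and 2 below, beside 6726 above and 5104 below among all 11830 measured genes, and none was 2-fold apart on the log2 scale with 1 FPKM added. Their median was 0.28 (0.14 to 0.43 over the alternatives), beside 0.079 over all measured genes. RIOX1, a ribosomal oxygenase, stood at 11.0 FPKM in D16 and 5.33 FPKM in control, a ratio of 2.06 (95% interval 1.78 to 2.39) and a log2 difference of 0.92. JMJD6, a lysyl hydroxylase of splicing factors, stood at 10.5 FPKM in D16 and 5.39 FPKM in control. EGLN1, the main oxygen sensor that marks hypoxia-inducible factors for breakdown, stood at 15.7 FPKM in D16, 1.74-fold above control (95% interval 1.61 to 1.88), while its relative EGLN2 stood at 3.82 FPKM in D16 and 6.68 FPKM in control.

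Genes that handle the iron and ascorbate of these enzymes were measured in 7 of 8 cases. Of these, 3 were at least 2-fold higher, beside 3.63% of all measured genes. The ferritin chain FTL stood at 11306 FPKM in D16 and 1455 FPKM in control, and FTH1 at 2302 FPKM in D16 and 358 FPKM in control. Both ferritin genes have near-identical pseudogene copies that can share reads, so these levels are uncertain. TFRC, the transferrin receptor that brings iron in, was also higher, at 62.7 FPKM in D16 and 29.9 FPKM in control (2.09-fold, 95% interval 2.02 to 2.17). SLC23A2, an ascorbate transporter, stood at 3.08 FPKM in D16 and 5.01 FPKM in control. The median of the list was 0.14. It was -0.0049 after centring and 0.31 after rescaling to equal FPKM sums, and a stricter filter, an average of 5 FPKM or more, gave 1.04.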
